A study of Mus musculus with 6 samples.

Results

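The Glo1 segment is a stretch of mouse chromosome 17 that holds the glyoxalase gene Glo1 and its neighbours Btbd9, Dnah8 and Glp1r, with the noncoding transcripts Gm50250, Gm50240, Gm50242 and Gm10503. With Glo1-ps, a processed copy of Glo1 on chromosome 2, it makes 9 of the 55359 genes of the deposited table. The members were chosen by symbol among the genes that start from Btbd9 to a little past Gm10503 in the table's coordinates, and their counts in these libraries were in view when they were chosen. Their values are therefore given as a description, with no test.

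Whole lungs were taken from C57 mouse embryos late in gestation, at E18.5, and their polyadenylated RNA was sequenced. The 3 wild type libraries carry the genotype label WT, and the other 3 libraries carry the label Prmt5 knockdown. Prmt5 encodes an arginine methyltransferase, and the series text speaks of a knockout driven by Dermo1, also called Twist2, in the lung mesenchyme. No driver allele, litter or parental cross is given in the labels, so p-values measure only how far these samples spread, part of which may be technical. Whole-lung RNA mixes all cell types, so fewer cells of a type and less RNA per cell cannot be told apart.

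Glo1 encodes glyoxalase 1, which acts on the adduct of glutathione with the toxic glycolysis by-product methylglyoxal, a step in its clearance as lactate. Dnah8 encodes a heavy chain of the dynein motors that bend cilia and flagella and is best known from sperm tails. Btbd9 encodes a BTB-domain protein, a family whose members serve as adaptors of Cullin 3 ubiquitin ligases. Glp1r encodes the receptor for the gut hormone GLP-1 and is strongly transcribed in mouse lung. The stretch around Glo1 is known to be present in differing copy number among laboratory mouse strains.

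Glo1-ps is a nearly exact copy of the coding sequence of Glo1, so reads can match both. Over the 555 bases of the coding sequence in the GENCODE M21 transcripts, the pair differed at 3 bases, a 99.46% identity. All 3 differences left the amino acid of their codon unchanged, so the copy keeps the whole reading frame of 184 amino acids without an internal stop.

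The junctions of 3 noncoding transcripts are shown because these transcripts had few or no counts in one of the groups. Each line holds 40 bases of exon 1 in lower case and 40 bases of exon 2 in capitals, read from the GENCODE M21 transcripts (GRCm38) in the direction of transcription.
Gm50250 exon 1 to 2 junction: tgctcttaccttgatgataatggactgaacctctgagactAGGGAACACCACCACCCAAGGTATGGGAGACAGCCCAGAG
Gm10503 exon 1 to 2 junction: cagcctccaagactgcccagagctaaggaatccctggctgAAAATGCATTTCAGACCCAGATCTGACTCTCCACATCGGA
Gm50252 exon 1 to 2 junction: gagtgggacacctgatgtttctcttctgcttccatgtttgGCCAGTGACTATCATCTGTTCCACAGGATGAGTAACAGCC
Gm50250 has 2 exons, chr17:30450398-30450515 and chr17:30457322-30457877 on the plus strand, inside the body of Btbd9, which is read from the minus strand. Gm10503 has 3 exons on the minus strand, from chr17:30963070-30963220 to chr17:30920338-30923856, and its body covers 20454 bases of the plus-strand gene Glp1r. Neither shares an exonic base with its host. Gm50252, which is not a member, runs on the minus strand from an exon inside exon 3 of Gm10503 to exons shared with Btbd9. Its first intron of 393.22 kb spans Glo1 and Dnah8, and 82.1% of its exonic bases also belong to Btbd9.

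**Figure D1:**
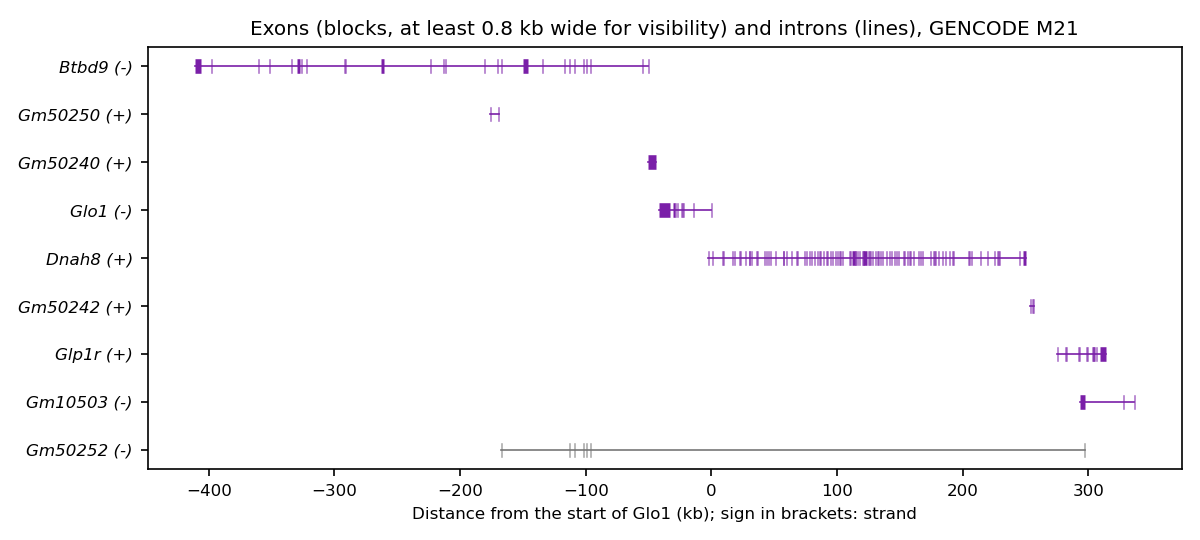
Exons (blocks) and introns (lines) of the 8 chromosome 17 members and of Gm50252 (grey) in GENCODE M21, plotted by distance in kb from the start of Glo1, with the strand in brackets. Gm50250 lies inside Btbd9, Gm10503 overlaps Glp1r, and Gm50252 joins the same stretches across Glo1 and Dnah8.

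The targeted gene was measured first as a check of the labels. Prmt5 stood at 46.7, 47.3 and 48.3 CPM (counts scaled to a common library total with TMM factors) in wild type replicates 1 to 3. The libraries labelled Prmt5 knockdown had 39.6, 47.8 and 46.9 CPM. The groups overlapped, and the log2 fold change of -0.08 did not pass edgeR's quasi-likelihood test (Benjamini-Hochberg adjusted p = 0.682). Whole-lung counts mix all cell types, so a loss limited to the mesenchyme could be masked, and these values cannot settle the labels. The second group is therefore called knockdown-labelled, and every direction given for a gene rests on the label.

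Lung markers were present in all libraries, and markers of some other tissues varied between them. Libraries held 14383415 to 19262837 counts. The 6 lung epithelial markers summed to 12183 to 14912 CPM in wild type and 12608 to 15168 CPM in the knockdown-labelled group. Of these, Ager was lower in every knockdown-labelled library (means of 1393 and 945 CPM), Foxj1 was higher (69.8 and 90.9 CPM), and the others overlapped. The 5 mesenchyme markers summed to 3195 to 3671 and 3302 to 4228 CPM, with 2 lower and 1 higher in every knockdown-labelled library. The 3 immune markers summed to 61.5 to 82.2 and 76.8 to 107.8 CPM, with 1 higher. The 12 heart muscle markers summed to 499 to 2888 CPM in wild type and 3287 to 12342 CPM in the knockdown-labelled libraries, and 10 of the 12 had groups that did not overlap. The 4 endothelial markers summed to 1980 to 2239 and 1309 to 1690 CPM, and all 4 were lower in every knockdown-labelled library. Of all tested genes, 10.8% were higher in every knockdown-labelled library and 12.4% were lower. Markers of thymus (0.282 to 89.9 against 2.36 to 150.01 CPM) and of oesophagus and skeletal muscle (38.0 to 961 against 337 to 1961 CPM) varied strongly between libraries of a group, and no gene of these lists or of the erythroid list had groups that did not overlap. With the heart muscle level as a covariate the log2 fold changes were -0.64 for Glo1, -2.52 for Glo1-ps, -1.33 for Dnah8, -0.28 for Btbd9, -0.29 for Gm50240, -0.09 for Glp1r, -7.70 for Gm10503, -5.77 for Gm50250 and -0.51 for Gm50242. The heart muscle sums did not overlap between the groups, so in 6 libraries this covariate cannot be fully told apart from the label. The part of the other tissues in the values of the segment was not tested.

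Of the 9 genes, 7 had groups that did not overlap, each with the knockdown-labelled libraries lower, and none had them higher. Among all 17728 genes tested, 23.2% had groups that did not overlap, 12.4% with the knockdown-labelled group lower and 10.8% with it higher. Because the members were chosen on these counts, nothing is read from that comparison. The members fell into 3 kinds by size. Glo1, Dnah8, Btbd9 and Gm50240 kept 55.1% to 76.0% of their wild type level, Glo1-ps kept 14.8%, and Gm10503 and Gm50250 were nearly without counts. The groups of Glp1r and Gm50242 overlapped.

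**Figure D2:**
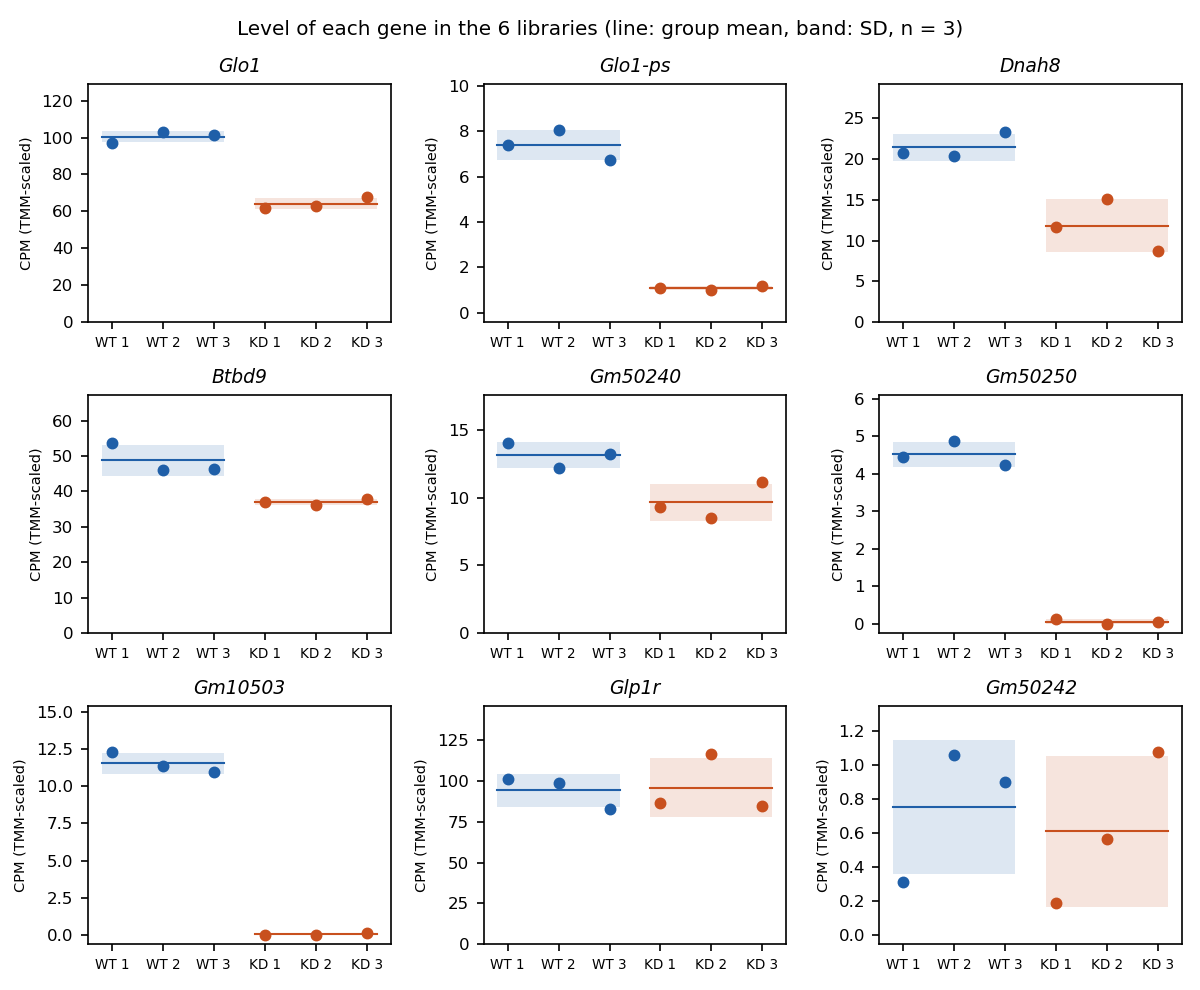
Level of each of the 9 genes in CPM (y axis, from 0, one scale per gene) in the 6 libraries, with WT for wild type and KD for knockdown-labelled. Points are libraries, lines are group means and bands are SDs (n = 3). Glo1 sits at 97.0 to 103 CPM in wild type and at 62.1 to 67.6 CPM in the knockdown-labelled libraries, and only Glp1r and Gm50242 have groups that overlap.

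Glo1 (ENSMUSG00000024026, chromosome 17, 30803910 to 30845845 in the table, minus strand) had counts of 1569, 1459 and 1586 in wild type, against 1005, 885 and 1319 in the knockdown-labelled lungs. Scaled for depth these were 97.0, 103 and 101.6 against 62.1, 62.6 and 67.6 CPM. The wild type values lay close together, the knockdown-labelled values lay close together, and no value fell between the groups. Group means of 100.5 ± 3.18 and 64.1 ± 3.04 CPM (SD, n = 3 per group) put Glo1 1.57-fold lower, a log2 fold change of -0.65 (standard error 0.07). The median log2 fold change of all tested genes was 0.0147, and 362 of the 17728, Glo1 and other members among them, had a value as low as that of Glo1 or lower. Because Glo1 was chosen with its counts in view, nothing is read from that place.

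Wild type replicate 3 had 2888 CPM of heart muscle markers, close to the 3287 CPM of knockdown-labelled replicate 3, and their Glo1 levels were 101.6 and 67.6 CPM. Each is a single library, and the part of heart tissue in the level of Glo1 was not tested. The log2 fold change of Glo1 was -0.64 with embryo sex as a covariate.

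Glo1-ps (ENSMUSG00000075391, chromosome 2), which GENCODE M21 lists as the processed pseudogene Gm13443, was lower by a larger factor than Glo1. Its counts were 120, 114 and 105 in wild type, against 18, 14 and 23 in the knockdown-labelled lungs. The highest knockdown-labelled value, 1.18 CPM, was far under the lowest wild type value, 6.73 CPM. The means of 7.40 ± 0.660 and 1.09 ± 0.0952 CPM (SD, n = 3 each) differed 6.77-fold, a log2 fold change of -2.74 with a standard error of 0.20.

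The share of the pair's counts that was assigned to Glo1-ps sets it against Glo1 within each library and needs no scaling between libraries. Glo1 was itself lower in the knockdown-labelled libraries, so this share is another contrast than the level of Glo1-ps. It was 7.10%, 7.25% and 6.21% in wild type (95% Wilson intervals from 5.16% to 8.64% over the libraries). In the knockdown-labelled libraries it was 1.76%, 1.56% and 1.71% (0.930% to 2.76%). The intervals of the 2 groups did not meet, and they cover counting error only. Per exonic length, Glo1-ps had 1.44 to 1.70 times the FPKM of Glo1 in wild type and 0.344 to 0.390 times in the knockdown-labelled libraries, although the exonic length used for Glo1, 12101 bases, takes in transcripts much longer than its coding sequence. How reads that match both genes were counted is not given in the sources used here, so the level of each alone is uncertain. Their sum does not depend on how assigned reads were divided between the pair, and it was 107.9 ± 3.37 CPM in wild type and 65.2 ± 3.11 CPM in the knockdown-labelled libraries (SD, n = 3 each), or 60.4% of wild type.

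**Figure D3:**
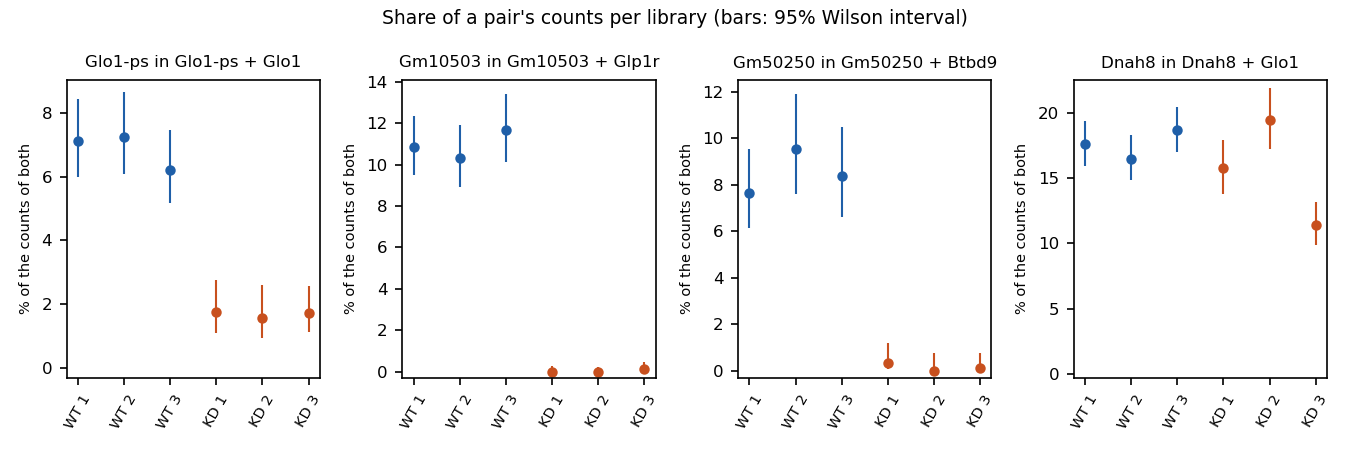
Share of a pair's counts in percent (y axis) in each of the 6 libraries for Glo1-ps with Glo1, Gm10503 with Glp1r, Gm50250 with Btbd9 and Dnah8 with Glo1, with 95% Wilson intervals as bars. The first 3 shares separate wild type (WT) from knockdown-labelled (KD) libraries, and the share of Dnah8, 11.4% to 19.5%, does not.

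Dnah8 (ENSMUSG00000033826, chromosome 17, 30843328 to 31096339 in the table, plus strand) starts head to head with Glo1, and the gene bodies overlap by 2518 bases with no shared exonic base. Wild type libraries had 20.7, 20.3 and 23.3 CPM of it, against 11.6, 15.1 and 8.71 CPM in the knockdown-labelled lungs. All knockdown-labelled values were lower, but they were spread widely, with a coefficient of variation of 27.3% against 7.61% in wild type. The means of 21.5 ± 1.63 and 11.8 ± 3.22 CPM (SD, n = 3 each) gave a log2 fold change of -0.86 with a standard error of 0.20, or -1.33 with the heart muscle level as a covariate.

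Dnah8 did not keep a fixed ratio to Glo1. Its share of the counts of both genes was 17.6%, 16.5% and 18.7% in wild type, against 15.8%, 19.5% and 11.4% in the knockdown-labelled lungs. Knockdown-labelled replicate 2 was above every wild type library in this share, and replicate 3 was below every other library. In FPKM, Dnah8 stood at 0.75 to 0.87 in wild type and 0.33 to 0.55 in the knockdown-labelled libraries. The exonic length used for it, 26820 bases, takes in all its annotated transcripts, the longest of which has 16685 bases.

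Markers of ciliated cells, which use axonemal dyneins, differed in the other direction from Dnah8. The 5 ciliated cell markers summed to 148 to 163 CPM in wild type and 199 to 203 CPM in the knockdown-labelled libraries. Each of the 5 was higher in every knockdown-labelled library, as were 10.8% of all tested genes. Of 18 other axonemal dynein genes, 5 were higher in every knockdown-labelled library, 1 was lower and the rest overlapped. Markers of the testis germ line summed to 0.565 to 1.09 CPM and 0.988 to 1.08 CPM, near the level of single counts.

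Btbd9 (ENSMUSG00000062202, chromosome 17, 30434498 to 30795462 in the table, minus strand) lies on the proximal side of Glo1. Wild type libraries had 53.7, 46.2 and 46.4 CPM of it, against 37.0, 36.2 and 37.9 CPM in the knockdown-labelled lungs. The knockdown-labelled values were tightly grouped below the wild type values. The means of 48.8 ± 4.28 and 37.0 ± 0.878 CPM (SD, n = 3 each) gave a log2 fold change of -0.40 with a standard error of 0.08.

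Gm50240 (ENSMUSG00000117725, 30795274 to 30801568, plus strand) is a transcript antisense to the first bases of Btbd9 and lies between Btbd9 and Glo1. Wild type libraries had 14.03, 12.1 and 13.2 CPM of it, against 9.32, 8.49 and 11.1 CPM in the knockdown-labelled lungs, again with no overlap. The log2 fold change of -0.44 had a standard error of 0.15 and was -0.29 with the heart muscle level as a covariate. It shares 189 of its 6295 exonic bases with Btbd9, and without a stated strand setting the reads of those bases cannot be told apart.

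Gm50250 (ENSMUSG00000117835, 30669372 to 30676851, plus strand) had counts of 72, 69 and 66 in wild type, against 2, 0 and 1 in the knockdown-labelled lungs. It was close to even over the wild type libraries and at the limit of counting in the others. Over the groups this is 207 against 3 counts, a depth-corrected ratio of 74.2 with an exact 95% counting interval of 25.03 to 363. That interval pools the libraries of a group and leaves out the spread between them. Btbd9, the host of Gm50250, kept 76.0% of its wild type level in the same libraries. The share of Gm50250 in the counts of both thus went from 7.65%, 9.54% and 8.35% to 0.332%, 0% and 0.135%. The 0 of 511 counts in knockdown-labelled replicate 2 allow a share of up to 0.587% by a floor of 3 counts, and the 95% Wilson interval of that share reaches 0.746%.

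Glp1r (ENSMUSG00000024027, chromosome 17, 31120791 to 31159765, plus strand), the distal protein-coding member, had 101.1, 98.9 and 82.9 CPM in wild type, against 86.6, 116.7 and 84.5 CPM in the knockdown-labelled lungs. The highest value of all was in knockdown-labelled replicate 2 and the lowest in wild type replicate 3. The means were 94.3 ± 9.92 and 95.9 ± 18.02 CPM (SD, n = 3 each). The log2 fold change of 0.02 had a standard error of 0.14, and with a library left out it ran from -0.14 to 0.11.

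Gm10503 (ENSMUSG00000117786, 31139312 to 31182194, minus strand), antisense to Glp1r, had counts of 199, 161 and 171 in wild type, against 0, 0 and 2 in the knockdown-labelled lungs. It was the member with the largest ratio: 531 against 2 counts, depth-corrected to 285 with an exact 95% counting interval of 78.6 to 2363. That interval likewise leaves out the spread between libraries. Gm10503 made up 10.8%, 10.3% and 11.7% of the counts of Gm10503 and Glp1r together in wild type. In the knockdown-labelled libraries the share was 0%, 0% and 0.121%, and the counts of 0 among 1402 and 1649 allow up to 0.214% and 0.182% by the same floor (95% Wilson intervals reach 0.273% and 0.232%). Counts of Glp1r thus overlapped between the groups while those of the transcript opposite it were nearly missing in one.

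Gm50242 (ENSMUSG00000118281, 31099445 to 31102403, plus strand), a noncoding gene between Dnah8 and Glp1r, had counts of 5, 15 and 14 in wild type, against 3, 8 and 21 in the knockdown-labelled lungs. Its groups overlapped, and at this depth its log2 fold change of -0.26 had a standard error of 0.67.

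Beside the members, Gm50252 had counts of 9, 1 and 4 in wild type, against 0 in each knockdown-labelled library. With 3 counts over the group taken as the floor, it was at least 5.02-fold lower, a bound that takes the 14 wild type counts without their own error, 9 of them from replicate 1. It was too low to be tested and was picked out after its counts were seen, because it starts within Gm10503. Matches to other transcripts limit these values: 9.9% of the bases of Gm10503 and 16.9% of those of Gm50250 have a match of at least 95% identity over at least 50 bases in the transcripts of other genes. For Gm50252 this is 100% of its 1528 bases, with matches in 247 other genes, so its counts are the most limited of these. Part of the matches is exon overlap at the same place. Gm50252 matches 247 of the 398 matched bases of Gm10503, and the genes share 246 exonic bases. Btbd9 matches 1256 bases of Gm50252, and these genes share 1255 exonic bases.

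Compared per length, the order of the members changed between the groups. The lengths take in all annotated exons of a gene, for Btbd9 18201 bases against 7058 in its longest transcript. The order within a group therefore depends in part on the annotation. In wild type the mean FPKM was 16.1 for Glp1r, 13.2 for Glo1-ps, 8.25 for Glo1, 6.65 for Gm50250, 2.85 for Gm10503, 2.66 for Btbd9, 2.07 for Gm50240, 0.793 for Dnah8 and 0.67 for Gm50242. Of neighbours in that order, the libraries of Gm10503 and Btbd9 overlapped, and so did those of Dnah8 and Gm50242. In the knockdown-labelled libraries it was 16.5 for Glp1r, 5.30 for Glo1, 2.04 for Btbd9, 1.97 for Glo1-ps, 1.53 for Gm50240, 0.55 for Gm50242, 0.44 for Dnah8, 0.0867 for Gm50250 and 0.01 for Gm10503. There Glo1-ps overlapped with Btbd9 and with Gm50240, Gm50242 with Dnah8, and Gm50250 with Gm10503. Glo1-ps and the noncoding pair Gm50250 and Gm10503 were the members that moved down the order.

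The edges of the stretch were read from the genes on either side. A total of 24 genes start within the segment, of which 8 are members, and 15 of the other 16 had too few counts to be tested, with 5 of them at 0 in every library. The one tested gene, the processed pseudogene Gm6402 within Btbd9, ran from 30 to 400 counts in wild type and from 198 to 390 in the knockdown-labelled libraries, and its log2 fold change of 0.50 did not pass (edgeR adjusted p = 0.794). Among the untested genes, Gm8373 within Glo1 had counts of 8, 4 and 3 in wild type, against 1, 2 and 2. Gm9937 within Dnah8 had 11, 7 and 8, against 6, 4 and 6. Like Gm50252, both were lower in every knockdown-labelled library, and no untested gene of the segment was higher in every one. Just inside the window on the proximal side is Btbd9, and the nearest named gene outside it is Zfand3, at 106.7 ± 5.40 and 105.5 ± 4.03 CPM (SD, n = 3 each; log2 fold change -0.02, edgeR adjusted p = 0.935). The next ones outward, Mdga1 and Ccdc167, had log2 fold changes of 0.32 and -0.14 (edgeR adjusted p = 0.507 and 0.624). On the distal side, beyond Glp1r and Gm10503, Abcg1, which encodes a cholesterol exporter, stood at 48.0 ± 3.65 and 55.7 ± 6.08 CPM (log2 fold change 0.21, edgeR adjusted p = 0.350). Tff2 and Ubash3a, further out, were low and uneven, with log2 fold changes of -0.06 and 1.51 (edgeR adjusted p = 0.983 and 0.565).

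Within 1.0 Mb on the proximal side, 14 of 36 genes were tested and 0 passed the adjusted threshold in edgeR or DESeq2. At an unadjusted p under 0.05 there were 3, 1 lower and 2 higher, and their log2 fold changes with those of the others ran from -0.26 to 0.50. On the distal side 19 of 40 genes were tested, 0 passed in either tool, and 4 had an unadjusted p under 0.05, 2 in each direction. Log2 fold changes there ran from -0.51 to 1.51, a range that takes in the -0.40 of Btbd9 and the -0.44 of Gm50240. Groups did not overlap for 1 lower and 1 higher gene among those tested on the proximal side. On the distal side this held for 2 lower and 2 higher genes. DESeq2 gave no adjusted p for 3 of the flank genes. Across all tested genes 0.0338% passed the adjusted threshold in edgeR (0.0282% lower and 0.00564% higher), and 17% passed the unadjusted one (8.52% lower). The median log2 fold change was 0.15 on the proximal and -0.03 on the distal side.

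**Figure D4:**
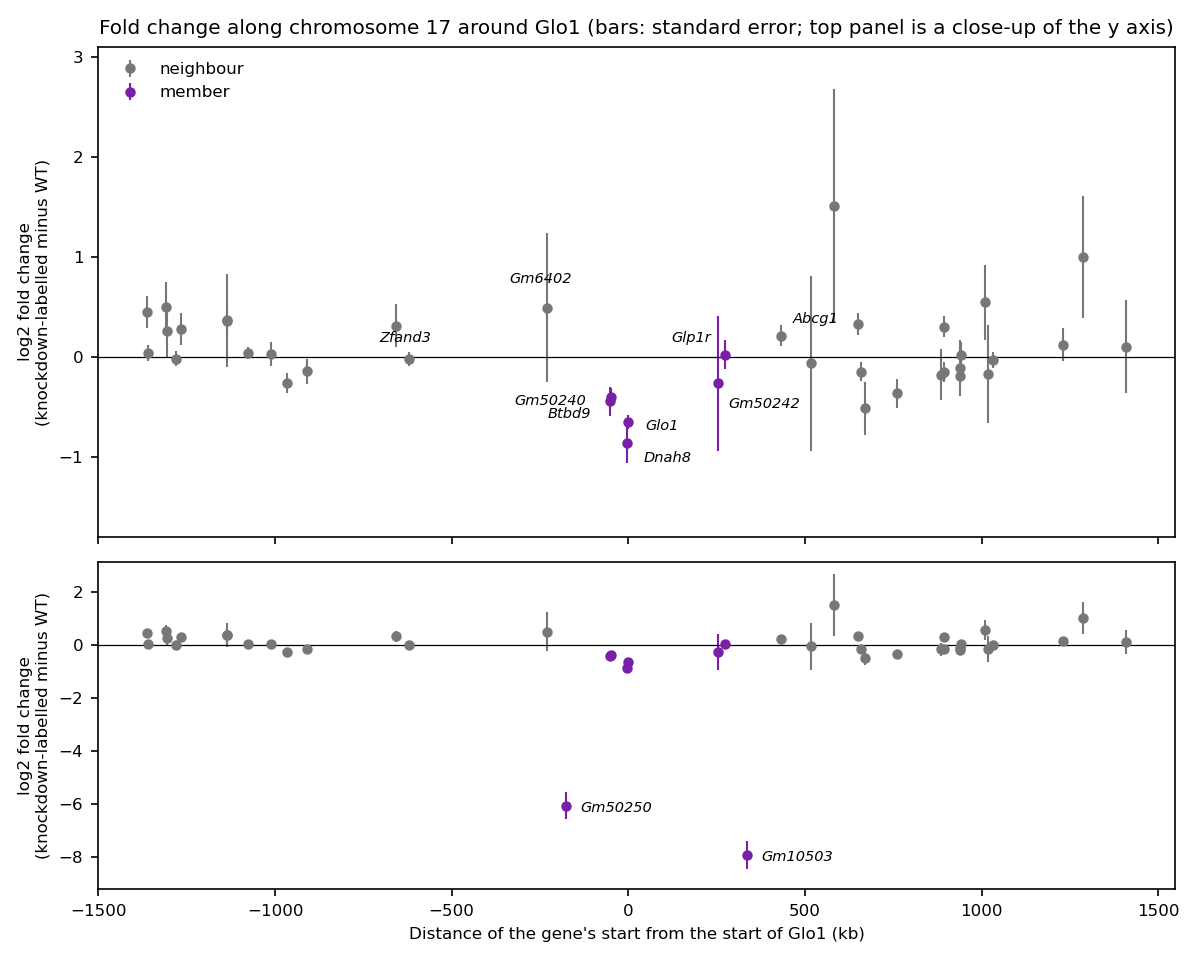
Log2 fold change (knockdown-labelled minus wild type, y axis) of each tested gene on chromosome 17 against the distance of its start from the start of Glo1 in kb (x axis), with standard errors as bars. Purple points are the members and grey points their neighbours, and the upper panel enlarges the y axis of the lower one. Btbd9, Gm50240, Dnah8 and Glo1 lie between -0.86 and -0.40, with Gm50250 at -6.06 and Gm10503 at -7.92, while Zfand3 and Abcg1 outside the segment lie at -0.02 and 0.21. The tested genes of the flanks run from -0.26 to 0.50 on the proximal side and from -0.51 to 1.51 on the distal side.

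Genes that share the pathway of Glo1 were examined through a list of 32 genes of glyoxalase activity and methylglyoxal handling. Of 31 tested, 0 passed the adjusted threshold in edgeR and 5 did in DESeq2. DESeq2 also passed far more genes over the whole table than edgeR, as given at the end. Whether the list differs from the whole table was not tested, so the 5 are not read as a result about the list. At an unadjusted p under 0.05 in edgeR there were 5 higher and 4 lower, and the list median was 0.05. Over all tested genes 17% met that threshold, 8.52% with lower values, and this share also stands beside the lists below. The smallest p-values were those of Tpi1, the glycolytic enzyme that interconverts the triose phosphates from which methylglyoxal forms (196 ± 29.9 and 337 ± 14.05 CPM, edgeR adjusted p = 0.0804). Next came Fn3k, a kinase that removes sugars from glycated proteins (1.85 ± 0.166 and 4.66 ± 0.893 CPM, adjusted p = 0.112), and Ager, the receptor for glycation end products and a marker of alveolar type 1 cells (1393 ± 120.5 and 945 ± 83.9 CPM, adjusted p = 0.116). Hagh, glyoxalase 2, which acts directly after Glo1, stood at 16.4 ± 2.01 and 18.3 ± 1.64 CPM (SD, n = 3 each; edgeR adjusted p = 0.580). It was named after its values were seen.

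The axonemal dynein list, the family of Dnah8, had 18 of 18 genes tested with a median log2 fold change of 0.09. None passed in edgeR or DESeq2, and an unadjusted p under 0.05 was met by 3 higher genes and 1 lower gene. The intermediate and light chain genes Dnali1, Dnal1 and Dnai2 had the smallest p-values, with log2 fold changes of 0.32, -0.21 and 0.23 (edgeR adjusted p = 0.174, 0.237 and 0.272). The lowest log2 fold change of the list was thus -0.21, against -0.86 for Dnah8. Because Dnah8 was chosen with its counts in view, nothing is read from that comparison.

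The list of the glucagon hormone family and its receptors, to which Glp1r belongs, had 8 of 13 genes tested. None passed in edgeR or DESeq2, an unadjusted p under 0.05 was met by 2 higher genes and 1 lower gene, and the list median was 0.65. Pcsk1, a prohormone convertase, stood at 1.49 ± 0.444 and 2.93 ± 1.10 CPM, Ramp2, a receptor partner, at 178 ± 21.05 and 147 ± 14.97 CPM, and Vipr1, a receptor for the peptide VIP, at 1.22 ± 0.346 and 4.52 ± 5.06 CPM (edgeR adjusted p = 0.260, 0.277 and 0.292). All 3 had overlapping groups.

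For Btbd9, the list of Cullin 3 and BTB adaptor genes had 18 of 18 genes tested and a median of -0.03. In edgeR 0 passed, in DESeq2 3 did, and at an unadjusted p under 0.05 there were 3 in each direction. DESeq2 passed far more genes than edgeR over the whole table, and whether this list differs from the whole table was not tested. The 3 are likewise not read as a result about the list. The smallest p-values belonged to lower values in the knockdown-labelled group: Btbd3 at 272 ± 9.47 and 193 ± 13.1 CPM, Kctd10 at 242 ± 8.53 and 180 ± 14.3 CPM, and Btbd7 at 169 ± 1.56 and 142 ± 8.56 CPM (edgeR adjusted p = 0.0903, 0.116 and 0.172). Cul3 itself stood at 152.6 ± 8.63 and 146.7 ± 11.1 CPM (adjusted p = 0.773) and was named after its values were seen.

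**Figure D5:**
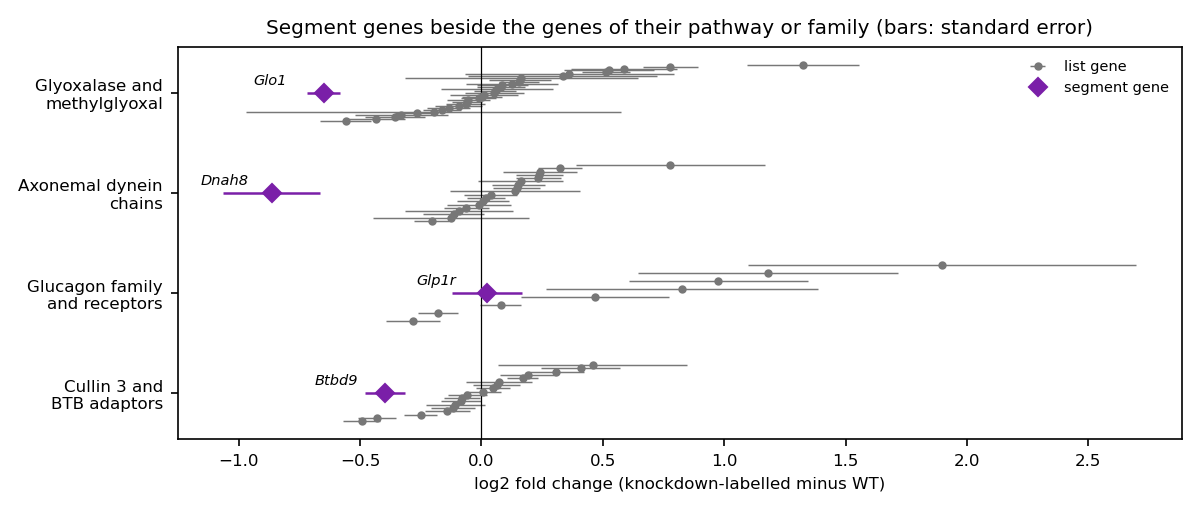
Log2 fold change (knockdown-labelled minus wild type, x axis) with standard error of Glo1, Dnah8, Glp1r and Btbd9 (purple diamonds) above the tested genes of the list each belongs to (grey points, sorted). Dnah8 at -0.86 and Glo1 at -0.65 lie to the left of every gene of their lists, Btbd9 at -0.40 lies among the lowest of its list, and Glp1r lies at 0.02. The segment genes were chosen with these counts in view, so nothing is read from their place beside the lists.

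The genes whose level over the 6 libraries was most like that of Glo1 were found by Pearson's r of log2 CPM among 17719 tested genes outside the members. These were Wnt5a (0.999), Fam13b (0.994), Fndc3b (0.992), Cggbp1 (0.991) and Nr5a2 (0.990), and 120 genes had an r over 0.95. For Glo1-ps they were Zpr1 (0.997), Wnt5a (0.996), Cggbp1 (0.996), Gm13715 (0.995) and Nr5a2 (0.994), and 176 had an r over 0.95. With 6 libraries in 2 groups, a high r needs close values within each group. The log2 fold changes differed widely, from -0.08 for Zpr1 and -0.21 for Cggbp1 and Fndc3b to -0.76 for Wnt5a and -1.75 for Gm13715.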

How the data were processed

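Poly(A) RNA-seq of 6 whole lungs was analysed from 1 deposited table. Per the file headers, it holds a raw count and an FPKM value per gene and library with exonic lengths, and the deposited FPKM values matched those recomputed from counts within 0.005. Tools listed in the submitters' processing notes are HTSeq 0.6.1, HISAT2 2.0.1 and cutadapt 1.9.1. Not given in the sources used here are their settings, the strandedness and the build, so table coordinates are printed without a build. Sequences and exons come from GENCODE M21 (GRCm38), matched by gene identifier, and no coordinates were converted. The aligned sequences of Glo1 and Glo1-ps are not reported here.

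The members and gene lists were chosen with earlier results of these data known. Counts of all genes were fitted with edgeR 4.0.16 in R 4.3.3 (filterByExpr, TMM factors, quasi-likelihood test, group as the only term, two-sided, Benjamini-Hochberg over 17728 genes, threshold 0.05), which was tested on simulated data. All 9 members passed the filter. CPM means and SDs are over 3 libraries. Counting intervals are at 95%, and floors are 3 counts (0.156 to 0.209 CPM). Transcripts were compared with BLAST 2.17.0. Alternatives were DESeq2 1.42.0, limma 3.58.1 on log2(FPKM + 1) where the mean FPKM was 1 or more, RLE factors, library totals, no filter, embryo sex (read from Ddx3y) or the mean log2 level of the heart muscle markers as a covariate, and leaving out each library.

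Genes named beside the members are Prmt5, the other tested gene of the segment, the 3 nearest tested genes with a full symbol in each flank of 1.0 Mb, the 3 smallest p-values of each list, and the 5 genes most correlated with Glo1 and with Glo1-ps. Gm50252, Gm8373, Gm9937, Hagh and Cul3 fall outside this rule and were named after their values were seen.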

Additional observations from a re-analysis of the deposited data

How the results depend on the processing

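Every member with groups that did not overlap kept its direction under all alternatives. Glo1 ran from -0.69 to -0.62 with a library left out and from -0.65 to -0.55 otherwise, Glo1-ps from -2.81 to -2.68 and -2.78 to -2.26, Dnah8 from -1.08 to -0.68 and -1.33 to -0.78, and Btbd9 from -0.435 to -0.32 and -0.44 to -0.27. Dnah8 and Gm50242 were under the minimum of the limma fit. Gm50242, low in counts, changed sign (-1.01 without knockdown-labelled replicate 3, 0.16 without replicate 1). The fold changes of Gm10503 and Gm50250 depend on the scale (-1.93 and -2.82 in limma on log2(FPKM + 1)), since a pseudocount shrinks low genes. With a library left out they ran from -10.46 (without knockdown-labelled replicate 3, which leaves that group at 0 counts, so the value is no bound) to -7.43 for Gm10503, and from -6.92 (without knockdown-labelled replicate 1) to -5.62 for Gm50250. Levels scaled by RLE factors or totals moved by less than 1 SD.

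Calls over all genes did depend on the fit, and the cause was not tested. Against 1 higher and 5 lower, there were 32 and 49 without the filter, 372 and 482 in DESeq2, 0 and 0 with embryo sex, and 0 and 1 with heart muscle level as a covariate. With a library left out there were 0 to 13 higher and 0 to 4 lower, with 1663 to 3287 at an unadjusted p under 0.05. Leaving out any of replicates 1 and 2 of either group left 0. The unadjusted count was 3015 in the fit of all libraries, 3615 without the filter, 2524 with sex and 1423 with heart muscle level. The glyoxalase list had 1 called gene without the filter, 0 to 1 with a library left out (1 without wild type replicate 3) and 5 in DESeq2, and the Cullin 3 list had 3 in DESeq2. No paired analysis was possible because the replicates carry no number shared between the groups in the labels.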
